A study of Mus musculus with 4 samples.

Results

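Receptor tyrosine kinases were followed here as 47 genes, named by symbol, among the 39056 genes of a mouse count table. Each symbol matched exactly 1 row, and all 47 are annotated as protein coding. Polyadenylated RNA was sequenced in 4 libraries, 1 library per label: no LPS, and 8, 16 and 20 h of LPS. All 4 are labelled as lung cells of S1PR1-GFP reporter mice, a strain in which green fluorescent protein marks cells that express the sphingosine-1-phosphate receptor S1PR1. The sort took cells positive for GFP and CD31 and negative for CD45, which the labels call S1PR1-positive endothelial cells. The labelled dose of lipopolysaccharide (LPS, a bacterial outer-membrane component that activates Toll-like receptor 4) was 10 mg/kg, given into the peritoneum. The sources used here give neither the age, sex and strain background of the mice nor how many animals a library pools. The series title points to the question of how such cells take part in restoring the lung vessel wall.

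Receptor tyrosine kinases are single-pass membrane proteins that bind growth factors, ephrins, collagens or phosphatidylserine-bridging proteins outside the cell and phosphorylate tyrosines inside it. The phosphotyrosines recruit adaptor proteins that start the RAS-ERK, PI3K-AKT and PLC-gamma routes. Which receptors a cell makes differs sharply between lineages. Endothelium is known for TIE1, TEK (also called TIE2) and the VEGF receptors, fibroblasts for the PDGF receptors and DDR2, epithelium for ERBB3, FGFR2, MET and DDR1, and blood progenitors and mast cells for KIT and FLT3.

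Totals lay between 27566454 and 28905776 reads, and 11803 genes reached 1 CPM (counts per 1000000 reads of the scaled total) in at least 1 library; these are called measured genes. The labelled cell type was checked against marker lists. Of 14 endothelial markers 3 were measured, and the summed level of the list was 17.4 to 36.6 CPM. Most defining markers were near 0: Pecam1, which encodes the sorted protein CD31, had 1 to 7 reads per library, Cdh5 had 5 to 9, and Emcn, Erg and Cldn5 had 0 in all 4. S1pr1, the gene of the reporter, had 27, 87, 79 and 29 reads (no LPS, 8, 16 and 20 h). Of 13 fibroblast and mesenchymal markers 6 were measured, with a summed level of 2791 to 3231 CPM, most of it Vim. In that list Prrx1 stood at 209 to 213 CPM, while Tcf21 had 0 reads and Col1a1 at most 4. The identity genes thus go against the labels, and every time given here stands for the library labelled so. With 1 library per label no difference between labels has a replicate check, and all intervals cover counting error only. Changes in the number of cells of a type and in RNA per cell cannot be told apart in such bulk RNA.

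The 47 receptors fell into expressed and near-silent genes. In at least 1 library 21 receptors (44.7%) reached 1 CPM, against 51.2% of the 21760 protein-coding genes in the table, and 26 did not. The 21 measured receptors took 305651 reads over the 4 libraries, while the other 26 took 192 together. Of those 26, 8 had no read in any library: Kit, Erbb4, Ntrk2, Epha4, Epha7, Ephb1, Ros1 and Alk. A count of 0 in all 4 libraries allows a level of up to 0.0267 CPM (3 reads over the summed totals). Another 16 had between 1 and 7 reads in their highest library. Pdgfrb and Fgfr3 lay just under 1 CPM, with 23, 11, 13 and 19 reads for Pdgfrb and 5, 16, 19 and 4 for Fgfr3 (no LPS, 8, 16 and 20 h). Ephb6 lay just above, with 21, 36, 27 and 21 reads, and passed 1 CPM at 8 h alone.

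**Figure D1:**
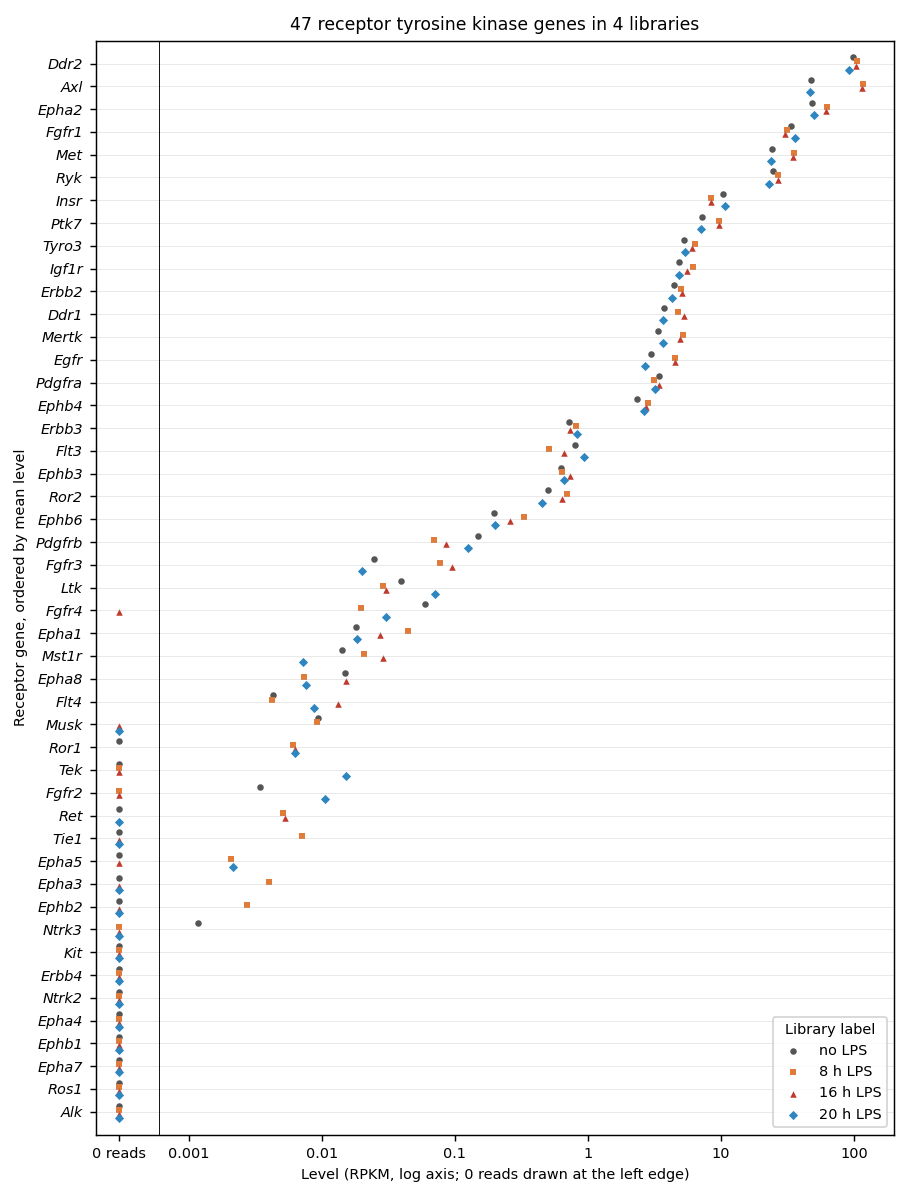
Level of each of the 47 receptor genes (rows, ordered by mean level) in the 4 libraries, in RPKM on a log axis, with 1 point per library and libraries of 0 reads drawn at the left edge. Ddr2, Axl and Epha2 lead, and 8 genes have 0 reads in every library.

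Levels of different genes were set side by side only as RPKM (CPM divided by the kilobases of merged exons). The collagen receptor gene Ddr2 led (chromosome 1, 169972307 to 170110762, minus strand, mm10), with 97.9, 105, 104 and 91.4 RPKM (no LPS, 8, 16 and 20 h). Axl, a receptor that binds GAS6 on phosphatidylserine and tempers innate immune signalling (chromosome 7, 25757273 to 25788705, minus strand), had 47.4, 116, 114 and 46.2 RPKM. Axl therefore stood above Ddr2 at 8 and 16 h and below it in the other 2 libraries. Epha2, a receptor for A-type ephrins (chromosome 4), had 48.3, 62.8, 61.6 and 49.8 RPKM, slightly above Axl with no LPS and at 20 h. These 3 genes made up 62.5% of the summed mean RPKM of the 47 receptors, and with Fgfr1 and Met 78.8%. In the library labelled no LPS, Ddr2 ranked 292 among the measured genes by RPKM, Epha2 843 and Axl 866.

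Next in order came Fgfr1, at 30.2 to 35.7 RPKM, the HGF receptor gene Met, at 23.5 to 35.3, and the Wnt receptor gene Ryk, at 22.7 to 26.9. The ranges of Met overlap those of both neighbours, so the order of these 3 is not the same in every library. The insulin receptor gene Insr followed at 8.33 to 10.6 RPKM and Ptk7, which encodes a Wnt co-receptor of planar polarity, at 7.05 to 9.66. The next 8 genes had means between 2 and 6 RPKM: Tyro3, Igf1r, Erbb2, Ddr1, Mertk, Egfr, Pdgfra and Ephb4. Erbb3, Flt3, Ephb3, Ror2 and Ephb6 had mean levels of 0.772, 0.726, 0.664, 0.570 and 0.247 RPKM. Neighbours among the last 5 overlap in range except Ephb6, which lay below the others in every library. Ryk, Ptk7, Erbb3 and Ephb6, often classed as pseudokinases with little or no catalytic activity, were among the measured receptors. This grouping was made after the values were seen and does not cover all receptors so classed.

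In several families a single member carried most of the expression. In the FGFR family Fgfr1 had 9395, 8786, 8264 and 9760 reads (no LPS, 8, 16 and 20 h), while Fgfr2 had 1, 0, 0 and 3 and Fgfr4 had 6, 2, 0 and 3. The RPKM of Fgfr1 was at least 315 times that of Fgfr3 in each library. In the DDR family the RPKM of Ddr2 was 19.9 to 26.3 times that of Ddr1, the epithelial collagen receptor gene. In the PDGFR family Pdgfra, with 963, 900, 954 and 880 reads, had 22.9 to 44.7 times the RPKM of Pdgfrb. Pdgfra shares 6.50% of its exon bases with overlapping genes, 1 of them, Mir7025, on the same strand, and Fgfr3 shares 13.9% with a gene on the other strand, so part of their reads is uncertain.

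Of the 7 A-type Eph receptors among the 47 genes only Epha2 was measured. Epha1 had 2 to 5 reads, Epha8 1 or 2, Epha3 and Epha5 at most 1, and Epha4 and Epha7 none. Of the 5 B-type receptors among them Ephb4, Ephb3 and Ephb6 were measured, at 10.9 to 13.1, 4.14 to 4.84 and 0.743 to 1.25 CPM, while Ephb2 had 1 read in all and Ephb1 none. The RPKM of Epha2 was 18.9 to 22.6 times that of Ephb4. All 3 TAM receptors were measured, and the RPKM of Axl was 8.66 to 19.0 times that of Tyro3 and 12.7 to 23.4 times that of Mertk. In the ErbB family the RPKM of Egfr was 0.619 to 0.890 times that of Erbb2, that of Erbb2 was 5.22 to 6.97 times that of Erbb3, and Erbb4 had no read.

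Grouped by the tissue they are best known from, the receptors were unevenly present. Among receptors known from endothelium, Tek had 0, 0, 0 and 2 reads (no LPS, 8, 16 and 20 h), Tie1 had 0, 1, 0 and 0, and the lymphatic VEGF receptor gene Flt4 had 1, 1, 3 and 2. Of the VEGF receptor genes outside the 47, Kdr had 3 to 12 reads, and Flt1 was the only one of these 5 that was measured. Flt1 had 331, 785, 783 and 315 reads, with the libraries labelled 8 h and 16 h above the other 2. Of 8 receptors known from fibroblasts and mesenchyme 6 were measured, namely Ddr2, Axl, Fgfr1, Ptk7, Pdgfra and Ror2. Pdgfrb lay under 1 CPM and Ror1 had at most 1 read. Of 8 known from epithelium 4 were measured, Met, Ddr1, Erbb3 and Ephb3, and 4 were not, with Ros1 at 0, Fgfr2 at no more than 3 reads, Mst1r at no more than 4 and Epha1 at no more than 5.

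Receptors of blood cells split as well. Kit had 0 reads in every library, Flt3, the receptor of a cytokine of blood progenitors, had 140, 91, 113 and 159, and Mertk, which also marks macrophages, had 412, 639, 588 and 437. Csf1r, the macrophage colony-stimulating factor receptor gene outside the 47, had 9, 15, 30 and 26 reads and passed 1 CPM at 16 h alone. Beside these, the CD45 gene Ptprc had 31 to 42 reads, and 6 of 10 macrophage and leukocyte markers were measured, with a summed level of 102 to 138 CPM, led by Cd68, and with Cd3e at 0. All 8 receptors of the nerve and muscle list stayed under 1 CPM, with a summed level of 0.217 to 0.325 CPM. Ltk had 3 to 7 reads in each, Epha8 1 or 2, and Ret, Musk, Ntrk3 and Epha5 at most 1. Of 6 mast cell markers, 5 had 0 reads, as did Kit.

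Promoter sequence was set beside these levels for the 41 receptors matched in the RefSeq promoter table (GRCm38.p6, the build mm10), which are all but Fgfr1, Erbb3, Ret, Ntrk3, Pdgfrb and Insr. The 250 bases before the annotated start were read on the gene's strand. The 4 promoters printed here, chosen after the values were seen, show that both CpG-poor and CpG-rich windows occur in expressed (Axl, Met) and in near-silent (Tek, Epha5) receptors. Capitals mark CpG dinucleotides, of which there are 5 for Axl (chr7:25788734-25788983, minus strand), 24 for Met (chr6:17463707-17463956, plus strand), 2 for Tek (chr4:94739039-94739288, plus strand) and 20 for Epha5 (chr5:84417383-84417632, minus strand).
Axl: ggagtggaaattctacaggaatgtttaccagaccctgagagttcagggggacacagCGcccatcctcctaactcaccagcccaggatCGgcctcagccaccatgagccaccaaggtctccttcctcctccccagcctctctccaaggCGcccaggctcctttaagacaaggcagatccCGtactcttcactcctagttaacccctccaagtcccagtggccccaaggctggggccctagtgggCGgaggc
Met: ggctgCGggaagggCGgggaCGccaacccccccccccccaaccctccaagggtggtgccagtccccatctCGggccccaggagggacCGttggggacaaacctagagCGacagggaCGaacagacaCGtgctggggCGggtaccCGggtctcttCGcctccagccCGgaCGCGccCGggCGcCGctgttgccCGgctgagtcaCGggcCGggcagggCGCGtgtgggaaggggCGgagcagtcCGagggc
Tek: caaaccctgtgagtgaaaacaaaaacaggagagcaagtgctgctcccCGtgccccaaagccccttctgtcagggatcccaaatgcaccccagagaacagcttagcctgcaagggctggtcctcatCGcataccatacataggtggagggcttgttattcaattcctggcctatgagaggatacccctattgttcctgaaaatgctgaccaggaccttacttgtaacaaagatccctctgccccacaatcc
Epha5: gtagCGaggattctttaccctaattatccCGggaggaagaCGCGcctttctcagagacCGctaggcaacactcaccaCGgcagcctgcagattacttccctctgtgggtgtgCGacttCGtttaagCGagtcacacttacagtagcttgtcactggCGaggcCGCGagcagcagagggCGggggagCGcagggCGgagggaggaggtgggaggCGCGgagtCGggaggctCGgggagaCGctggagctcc
Axl and Tek, far apart in level, both have few CpG, with observed-to-expected ratios of 0.233 and 0.126, and Met and Epha5, also far apart in level, have ratios of 0.704 and 0.849.

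Among all genes, CpG content went with expression. The median ratio of observed to expected CpG was 0.753 in 8907 measured protein-coding genes and 0.237 in 7560 under 1 CPM. Among the receptors the medians lay close together. The median was 0.574 in the 18 measured receptors (range 0.113 to 1.33) and 0.556 in the 23 under 1 CPM (range 0.126 to 1.05). The 8 receptors without a read had a median of 0.638, and 5 of them had a ratio above 0.6. The listed start of Ddr2 lies 21818 bases inside the gene's outer limit in GENCODE and that of Fgfr2 2856542 bases inside. The starts of Ltk, Tyro3, Flt4 and Alk lie 1906, 1781, 416 and 320 bases inside. The windows of these 6 are thus those of starts internal to the GENCODE limits. For Fgfr2 that limit belongs to a gene model that shares exon bases with Ctbp2 on the same strand, so its start may be internal to that model only.

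**Figure D2:**
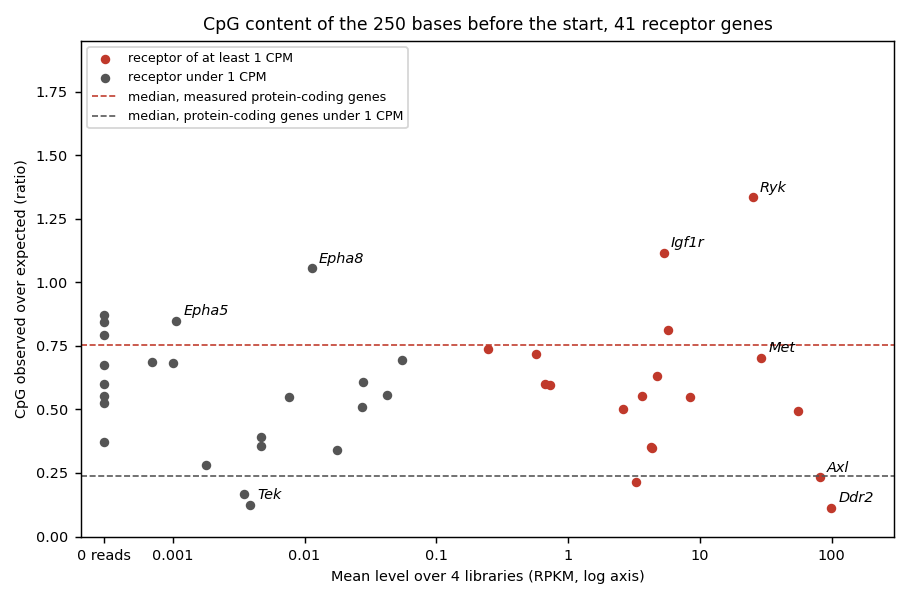
Ratio of observed to expected CpG in the 250 bases before the start (vertical axis) against mean level in RPKM on a log axis, 1 point per receptor, for 41 receptors; dashed lines give the medians of all protein-coding genes at or above 1 CPM (0.753) and under it (0.237). The 8 receptors at 0 reads lie between 0.370 and 0.871, inside the range of the 18 measured receptors.

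The search covered 3 short motifs on both strands of the same windows, none contained in another. The first was TGANTCA, known as a binding motif of AP-1 (FOS and JUN proteins). The second was GGAATG, a motif of the TEAD factors of the Hippo pathway. The third was GGGCGG, the GC box of SP1 and related factors. The Axl window held 1 match to the TEAD motif, 1 to the GC box and 0 to the AP-1 motif. The TEAD motif was in 4 of 18 measured receptors and 4 of 23 receptors under 1 CPM (22.2% and 17.4%), against 9.97% of measured protein-coding genes, 12.9% of those under 1 CPM and 12.6% of 27025 genes in all. The AP-1 motif was in 2 of 18 measured receptors, Met and Ror2, and in 0 of 23 under 1 CPM, against 4.00% of measured protein-coding genes, 8.66% of those under 1 CPM and 6.85% of all genes. The GC box was in 14 of 18 measured receptors (77.8%) and 13 of 23 under 1 CPM (56.5%), against 61.8% of measured protein-coding genes and 23.7% of those under 1 CPM. These are matches of letters in a window and say nothing of binding.

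The libraries were then compared in pairs. A gene was called higher or lower by a rule of size: a fold of at least 2 between scaled counts, a 95% counting interval clear of 1, and a level of 1 CPM or more in whichever library was higher. At 8 h against no LPS Axl was called higher and 20 measured receptors were not called, a share of 1 in 21, against 8.31% of all measured genes called in either direction, 4.19% higher and 4.13% lower. At 16 h against no LPS the result was again Axl alone, higher, against 8.23% of all genes called, 4.13% higher and 4.09% lower. At 20 h against no LPS no receptor was called, against 0.652% of all genes, 0.551% higher and 0.102% lower. The share of receptors called was thus near or below the background in these comparisons, all of which use the library labelled no LPS.

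Axl had 6738, 16817, 15945 and 6435 reads (no LPS, 8, 16 and 20 h), or 238, 586, 575 and 232 CPM. The libraries labelled 8 h and 16 h were high and lay close together, and the other 2 were low and lay close together. Axl was 2.46-fold higher at 8 h than with no LPS (95% interval 2.39 to 2.53) and 2.41-fold higher at 16 h (2.35 to 2.48). At 20 h it was 0.975-fold (0.942 to 1.01), and against 16 h the 20 h library was lower, at 0.404-fold (0.392 to 0.416). Marker genes of several cell types differed over the same libraries. The keratin gene Krt8, from the epithelial marker list, had 936 reads at 8 h against 371 with no LPS, and Krt18 had 2606 against 1078. Flt1 and S1pr1, 2 of 3 measured endothelial markers, were higher at 8 h and at 16 h. So was Tubb3, 1 of 3 measured neural markers, with 561 reads at 8 h against 187 with no LPS. Of 6 measured macrophage and leukocyte markers 1 was higher at 8 h, Adgre1, with 31 reads against 12, and 0 were lower. At 16 h 2 were higher and 0 lower, Adgre1 and Csf1r, the latter with 30 reads against 9. Adgre1 reached 1 CPM only at 8 h and at 16 h, and Csf1r at 16 h alone. Both thus count as measured only through the libraries in which they were high. The summed level of that list was 135 CPM with no LPS and 102 CPM at 8 h. Of 6 measured fibroblast and mesenchymal markers 0 were higher and 2 were lower at 8 h and at 16 h. These were Col3a1, with 2349 reads at 8 h against 4735 with no LPS, and Dcn, with 85 against 268. The 4 not called had, at 8 h against no LPS, 554 and 288 reads (Twist2), 1122 and 987 (Twist1), 79227 and 66653 (Vim) and 6001 and 5938 (Prrx1). The summed level of this list was 2791 CPM with no LPS, 3112 CPM at 8 h and 3231 CPM at 16 h, most of it Vim. Beside these marker counts, 4.19% of all measured genes were higher and 4.13% lower at 8 h, and 4.13% and 4.09% at 16 h. The epithelial list had 3 of 10 markers measured, a summed level of 54.4, 127, 129 and 55.5 CPM in the 4 libraries in time order, and 2 defining genes, Nkx2-1 and Sftpb, at 0. Mitochondrial transcripts took 1.80%, 1.36%, 1.40% and 1.90% of reads. The part of any of these in the difference was not tested.

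**Figure D3:**
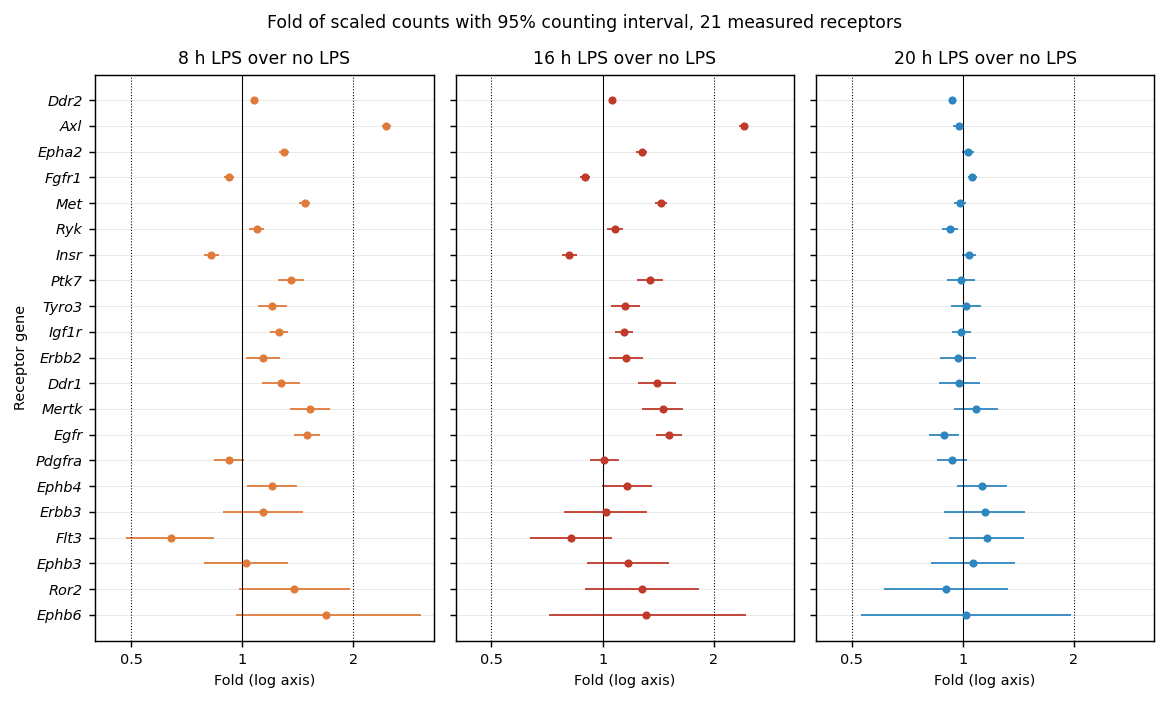
Fold of scaled counts over the library labelled no LPS for the 21 measured receptors at 8, 16 and 20 h (3 panels, log axis), with bars for the 95% counting interval and dotted lines at 0.5 and 2. Axl is the only receptor past 2, at 2.46 and 2.41 in the first 2 panels, and at 20 h all points lie between 0.890 and 1.16.

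Below that fold, the other TAM receptor genes, Egfr and Met differed in the direction of Axl. Mertk was 1.53-fold at 8 h (1.35 to 1.73) and 1.46-fold at 16 h (1.28 to 1.66), and Tyro3 was 1.21-fold and 1.15-fold. Egfr had 955, 1453, 1417 and 833 reads in the 4 libraries in time order, 1.498-fold at 8 h (1.38 to 1.63) and 1.51-fold at 16 h (1.39 to 1.64). Met had 5188, 7777, 7321 and 4993 reads, 1.48-fold at 8 h (1.42 to 1.53) and 1.44-fold at 16 h (1.39 to 1.49). In Egfr and Met, too, the libraries labelled 8 h and 16 h stood above the other 2 without overlap. Ptk7 was 1.36-fold and 1.34-fold, and Epha2 1.30-fold and 1.28-fold, at 8 h and at 16 h.

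Receptor genes of the insulin and FGF families stood below or nearer to 1. Insr had 3979, 3337, 3172 and 4041 reads, 0.826-fold at 8 h (0.788 to 0.865) and 0.813-fold at 16 h (0.776 to 0.852). Fgfr1 was 0.921-fold at 8 h (0.894 to 0.948) and 0.897-fold at 16 h (0.871 to 0.924). Igf1r, whose product binds IGF1 and IGF2, was 1.26-fold and 1.14-fold, opposite in direction to Insr. Flt3 was 0.640-fold at 8 h (0.486 to 0.839) and 0.823-fold at 16 h (0.637 to 1.06). Ddr2, the most deeply counted receptor, stood at 1.08-fold and 1.06-fold, and Pdgfra at 0.920-fold and 1.01-fold, of which the second lay just below 1 when scaled by library size.

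The remaining measured receptors were not called in any comparison. Epha2 had 6379, 8420, 7979 and 6451 reads (no LPS, 8, 16 and 20 h), Ptk7 1084, 1493, 1429 and 1051, and Igf1r 2304, 2940, 2575 and 2236. Tyro3 had 915, 1122, 1034 and 915 reads and Ryk 3151, 3502, 3345 and 2850. In these 5 genes, too, 8 h and 16 h were the higher libraries. Erbb2, the ligand-less partner in ErbB dimers, had 650, 751, 736 and 619 reads, 1.14-fold at 8 h (1.02 to 1.27). Ddr1 had 502, 650, 690 and 481 reads, 1.27-fold at 8 h (1.13 to 1.44) and 1.40-fold at 16 h (1.25 to 1.58). Ephb4, the receptor of ephrin-B2 that marks veins, had 307, 375, 351 and 339 reads, 1.20-fold at 8 h (1.03 to 1.40). Of the 5 receptors of lowest level, all but Flt3 could not be told from 1-fold at 8 h. Erbb3 had 122, 141, 122 and 137 reads, 1.14-fold (0.887 to 1.46), and Ephb3 had 117, 122, 134 and 122, 1.03-fold (0.790 to 1.33). Ror2, a WNT5A receptor gene, had 60, 84, 75 and 53 reads, 1.38-fold with an interval that included 1, and Ephb6 was 1.69-fold (0.959 to 3.04).

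Most receptors differed by more than counting error between the library labelled no LPS and those labelled 8 h and 16 h. At 8 h against no LPS the interval excluded 1 for 16 of 21 measured receptors, 13 above and 3 below, against 70.0% of all measured genes (35.3% above and 34.7% below). At 16 h it did so for 14 of 21, 12 above and 2 below, against 70.6% of all genes (35.7% above and 35.0% below). At 20 h it did so for 4 of 21, 1 above and 3 below, against 26.4% (14.6% above and 11.8% below). The shares in both directions together are near or below the background, and at 8 h and at 16 h more of the receptors lay above 1 than below it. The median log2 ratio of the 21 receptors was 0.27 at 8 h, 0.22 at 16 h and -0.01 at 20 h, while that of all measured genes was 0.00, 0.01 and 0.00. At 8 h 17 of the 21 had a ratio above 0, against 50.3% of all measured genes. Ephb6, 1 of these 17, reached 1 CPM at 8 h alone, so it enters this count and the medians only through the library in which it was highest.

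Libraries next to each other in time differed unequally. At 16 h against 8 h no receptor was called, against 0.237% of all genes, 0.161% higher and 0.0763% lower, and the 21 folds lay between 0.777 (Ephb6) and 1.29 (Flt3). The interval excluded 1 for Igf1r, 0.908-fold, and Pdgfra, 1.10-fold, 2 of 21 against 10.5% of all genes (5.23% above and 5.24% below). At 20 h against 16 h Axl was the 1 receptor called, lower, against 8.47% of all genes called, 4.63% higher and 3.85% lower. The interval excluded 1 for 15 of 21, 3 above and 12 below, against 71.1% of all genes (36.5% above and 34.6% below). Egfr was 0.588-fold there (0.539 to 0.641), Met 0.682-fold, Ddr1 0.697-fold and Insr 1.27-fold.

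The labels allow a single test, of a straight line over 0, 8, 16 and 20 h with 2 residual degrees of freedom. None of the 21 measured receptors passed it, with an adjusted p of 0.9999 for Ephb4, the receptor of smallest p, by edgeR's quasi-likelihood test with Benjamini-Hochberg adjustment over 11803 genes, of which 0% passed. Its unadjusted p was 0.545. No receptor had an unadjusted p under 0.05, against 0.364% of all genes, and DESeq2 called none either. A rise that is gone at 20 h, as in Axl, is not a straight line, so this test has little bearing on it.

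Ligand genes were read from lists whose members were chosen by family. Of 11 ErbB ligands 8 were measured. At 8 h against no LPS 4 were higher and 0 lower, and 4 were not called, against 4.19% of all measured genes higher and 4.13% lower. Hbegf, which encodes a membrane-anchored ligand of EGFR, had 1788, 3801, 3861 and 1836 reads (no LPS, 8, 16 and 20 h), 2.09-fold higher at 8 h (1.98 to 2.22) and 2.20-fold at 16 h (2.08 to 2.33). Tgfa, another EGFR ligand gene, was 2.87-fold and 3.32-fold higher on 35 to 114 reads. The neuregulin genes Nrg1 and Nrg2, which encode ligands of ERBB3 and ERBB4, were 4.36-fold and 4.76-fold higher at 8 h, with 31 against 7 and 29 against 6 reads. Both reached 1 CPM at 8 h alone, so they count as measured only through the library in which they were high. At 16 h Tgfa, Hbegf, Btc and Egf were called higher, against 4.13% of all genes, and the neuregulin genes were under 1 CPM. The median log2 ratio of the 8 measured ligands, these 2 included, was 1.01 at 8 h, 1.11 at 16 h and 0.01 at 20 h.

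Levels of ligand genes per length were set beside those of their receptor genes. Areg had 104, 177, 185 and 110 RPKM in time order, above the 2.66 to 4.52 RPKM of its receptor gene Egfr, and its folds of 1.70 at 8 h and 1.77 at 16 h were under the threshold. Ereg stood at 24.0 to 29.9 RPKM and went the other way. It was 0.803-fold at 8 h (0.764 to 0.844) and 0.803-fold at 16 h (0.764 to 0.845), and was not called. Pros1, the gene of protein S, a ligand of TYRO3 and MERTK, had 7.68 to 8.33 RPKM, with 920, 978, 933 and 870 reads. Gas6, the gene of the AXL ligand, had 12 to 22 reads. For Pdgfra, the ligand genes Pdgfc and Pdgfa had 10.1 to 10.9 and 4.76 to 7.01 RPKM, while Pdgfb and Pdgfd, ligand genes of the nearly silent Pdgfrb, had at most 2 reads.

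Several ligands and receptors were present without their partner. Kitl, the gene of the KIT ligand, had 14404, 12802, 11902 and 13378 reads and 72.7 to 86.2 RPKM, while Kit had none. Mst1, the gene of the macrophage-stimulating protein that binds the product of Mst1r, had 1684, 840, 760 and 1559 reads beside at most 4 for Mst1r. It was lower at 8 h, 0.491-fold (0.452 to 0.534), and at 16 h, 0.460-fold (0.422 to 0.502). Gdnf had 281 to 310 reads beside at most 1 for Ret, Bdnf 371 to 542 beside none for its receptor gene Ntrk2, and Fgf7 and Fgf10, ligand genes of an FGFR2 isoform, 781 to 838 and 358 to 588 beside at most 3 for Fgfr2. In reverse, Met had 4993 to 7777 reads beside 17, 2, 0 and 7 for the HGF gene Hgf, and Igf1r had 2236 to 2940 beside at most 3 for Igf1 and 2 for Igf2. All 8 ephrin genes were measured, led by Efna1 with 3.25 to 4.32 RPKM. Efnb3 was lower at 16 h alone, 0.446-fold on 35 against 80 reads, 1 of 8 beside 4.09% of all measured genes lower.

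**Figure D4:**
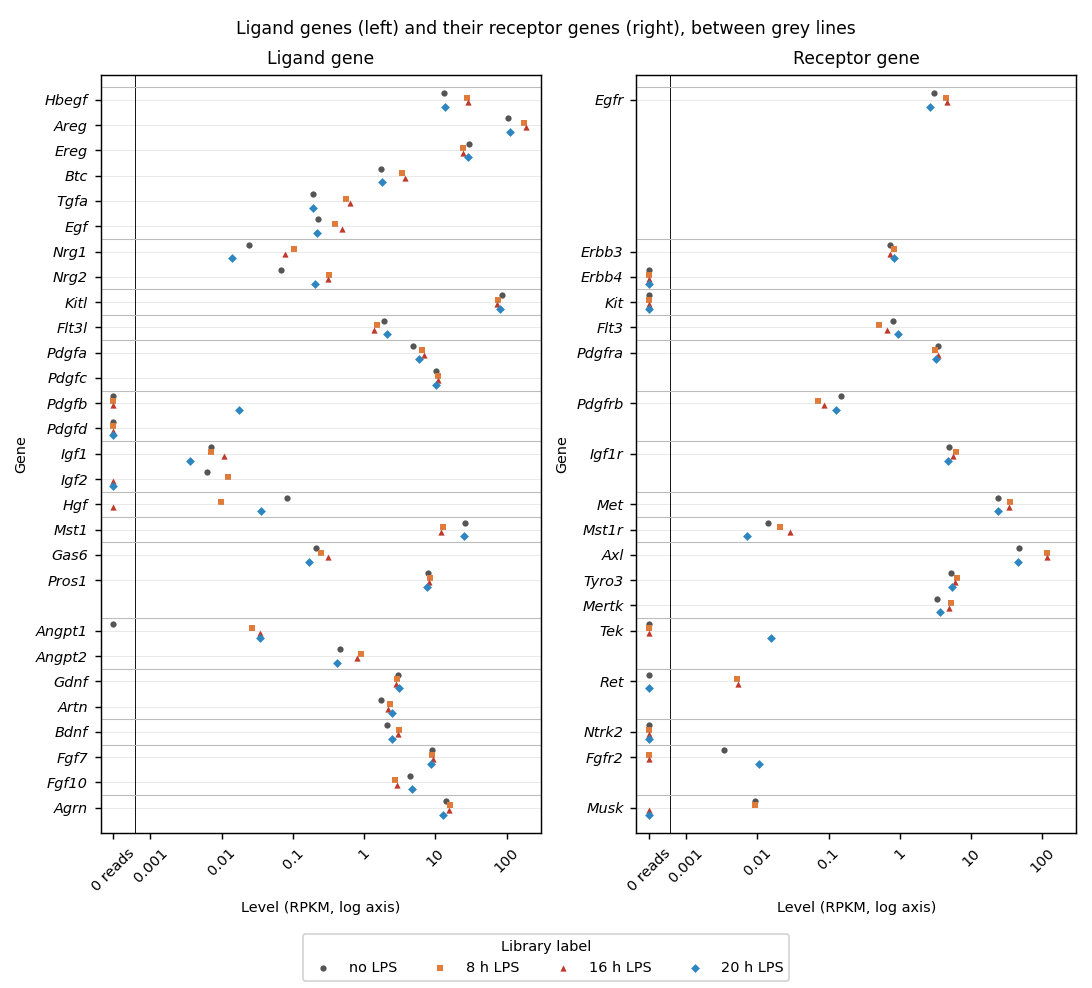
Levels of ligand genes (left) and of their receptor genes (right) in the 4 libraries, in RPKM on a log axis with 0 reads at the left edge; each ligand and receptor group lies between grey lines. Kitl, Mst1, Gdnf, Bdnf, Fgf7 and Agrn have 281 reads or more per library beside near-silent receptors, and Met and Igf1r are expressed beside near-silent Hgf, Igf1 and Igf2.

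Of 11 FGF ligands 5 were measured, with 2 lower and 0 higher at 8 h, against 4.13% of all measured genes lower and 4.19% higher: Fgf21, 0.241-fold on 11 against 45 reads, and Fgf2, 0.394-fold on 20 against 50. At 16 h Fgf21 alone was lower. Fgf21 reached 1 CPM only with no LPS and at 20 h, so it counts as measured only through the libraries in which it was high. Of 10 ligands of the PDGF, KIT, FLT and CSF1 receptors 8 were measured and Vegfc, the gene of the FLT4 ligand, was the 1 higher at 8 h (3.61-fold on 77 against 21 reads) and at 16 h (2.33-fold), against 4.19% and 4.13% of all genes higher. Downstream of the receptors few transcripts were called. Of 23 adaptor and proximal effector genes 22 were measured and 0 were called at 8, 16 or 20 h against no LPS (8.31%, 8.23% and 0.652% of all measured genes), with list medians of 0.00, 0.02 and 0.02 on the log2 scale. Of 19 attenuators of receptor signalling 18 were measured, and Spry4, a feedback inhibitor of the RAS-ERK route, was the 1 called, a share near that of all genes. Spry4 had 2004, 4719, 4498 and 2186 reads, 2.32-fold higher at 8 h (2.20 to 2.44) and 2.29-fold at 16 h (2.17 to 2.41), and 1.11-fold at 20 h.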

How the data were processed

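The authors deposited a single table of raw, whole-number counts by gene and library. STAR and featureCounts on mm10 are named in the submitters' processing notes. No source used here gives their versions, their settings, the annotation, or how strand and multiply mapped reads were handled. Columns were matched to samples by name, and groups follow the treatment label. Symbols, positions and merged exon lengths came from GENCODE M21 by stable identifier (38872 of 39056 matched), and promoters from RefSeq, taking the outermost listed start of each gene.

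Counts were scaled with TMM factors (edgeR 4.0.16, R 4.3.3). Intervals of folds are exact conditional binomial (Clopper-Pearson) 95% intervals (scipy 1.17.1), log2 ratios used a prior count of 2, and 0 reads allowed 0.104 to 0.108 CPM per library (3 reads). The trend used glmQLFit and glmQLFTest on the 11803 genes that reached 1 CPM in any library, with DESeq2 1.42.0 as an alternative. Receptors of at least 1 CPM are given per library. In pathway lists up to 4 called genes of largest ratio, or all in lists of up to 4 measured genes, were named, and further ligands, Flt1, Kdr, Csf1r and markers were added after their values were seen. Members and lists were chosen with earlier results of these data known.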

Additional observations from a re-analysis of the deposited data

How the results depend on the processing

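No paired analysis was possible because each label has 1 library, so the groups compared share fewer than 2 replicate numbers. Scaling by library size, DESeq2 size factors or upper quartiles, prior counts of 0.5 and 10, a stricter interval level, a minimum of 10 CPM and thinning to the smallest total left the number of receptors called as reported in all 5 comparisons. With no filter on low counts it was 2 at 8 h against no LPS (Axl and Fgfr3), 3 at 16 h (with Fgfr4) and 2 at 20 h against 16 h. Under that setting 8.6%, 8.52% and 8.77% of all measured genes were called. These shares leave out genes under 1 CPM in every library, the class of Fgfr3 and Fgfr4, so they are no background for those 2 genes. With a fold threshold of 1.5 the number of receptors called was 3, 2 and 2 in the same comparisons, beside 19.9%, 20% and 20.7% of all measured genes. Flt3 and Mertk joined Axl at 8 h, and Egfr joined Axl in the other 2. With a threshold of 4 the number was 0 in each, beside 1.58%, 1.51% and 1.56% of all measured genes. With no fold threshold, an alternative added after the data were seen, it was 16, 14 and 15, beside 70%, 70.6% and 71.1% of all measured genes. It was 4 at 20 h against no LPS and 2 at 16 h against 8 h, beside 26.4% and 10.5%.

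The number of receptors measured was 21 under all scalings and after thinning, 16 at a minimum of 10 CPM or of 1 RPKM, and 23 with more than 10 reads. No receptor passed the trend test under any alternative, including each library left out in turn, and the smallest adjusted p was 0.248, without the 20 h library. Among values of log2 ratios of single genes under the alternatives, 2266 kept their side of the threshold, 84 came to pass it, 49 no longer passed it and 1 moved (Ddr2 at 20 h against no LPS, with upper quartiles). No called ratio changed sign, while the ratios of Pdgfra at 16 h and Adam10 at 20 h against no LPS, which were near 0 and not called, did so with library size, and that of Adam10 also with the other scalings and thinning. Depth limits Ephb6, Ror2, Ephb3, Flt3 and Erbb3, whose intervals span over 1.5 times, and receptors under 1 CPM, such as Fgfr3, 3.15-fold at 8 h against no LPS with an interval of 1.10 to 11.0.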

Other observations

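Co-receptors and sheddases of the same pathways gave further values. Of 12 co-receptor genes 7 were measured, and at 8 h and at 16 h against no LPS 3 were higher and 0 lower, against 4.19% and 4.13% of all measured genes called higher. Gfra1, the gene of the GDNF-binding partner of RET, was 3.69-fold higher at 8 h (2.10 to 6.87) on 60 against 16 reads. Gfra1 reached 1 CPM only at 8 h and at 16 h, so it counts as measured only through the libraries in which it was high. Nrp1, a VEGF co-receptor gene, was 2.80-fold higher (2.14 to 3.69), and Lrp4, which encodes the agrin-binding partner of MUSK, was 2.29-fold higher (1.88 to 2.79). Agrn itself had 3316 to 4302 reads in the 4 libraries, while Musk had at most 1. Nrp2 and Cd44 were abundant, at 318 to 337 and 463 to 563 CPM, and were not called.

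Of 5 sheddase genes, whose products release ErbB ligands and some receptors from the membrane, 4 were measured. None was called at 8, 16 or 20 h against no LPS, beside 8.31%, 8.23% and 0.652% of all measured genes. Adam17, the main sheddase of HBEGF, TGFA and AREG, was 0.879-fold at 8 h (0.846 to 0.912), Adam10 0.797-fold (0.765 to 0.830) and Adam9 1.18-fold (1.15 to 1.21), and Adam19 had 339 reads at 8 h against 223 with no LPS.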
